A study of Rattus norvegicus with 16 samples.

Results

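Fibin, Clec3b, Scarf2, Myoc and Egfl6 are 5 of the 32552 genes counted in the rat abdominal wall under an implant. They were chosen by name after earlier looks at these data: Fibin, Clec3b, Scarf2 and Egfl6 for lower levels at the adhesive implant on day 3, and Myoc for the same on day 14. The levels of those comparisons are therefore given as a description, and tests are given only for comparisons that played no part in the choice. All 5 genes are listed in the counts of every library, Fibin, Clec3b and Scarf2 by Ensembl identifier and Myoc and Egfl6 by gene symbol. Being listed is not detection, since Egfl6 had a count of 0 in adhesive library 1 of day 14.

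The samples are bulk RNA of the abdominal wall of female Sprague Dawley rats, 12 weeks old according to the labels, 16 libraries that form 4 groups of 4. The groups are adhesive implant on day 3, non-adhesive implant on day 3, adhesive implant on day 14 and non-adhesive implant on day 14 post-implantation. Every implant carried the same polyurethane mock device and the same layer of poly(acrylic acid) N-hydroxysuccinimide ester and poly(vinyl alcohol). The non-adhesive implant had lost its bonding by swelling in phosphate-buffered saline and was sutured in place, so that suturing differs between the implants as well. No untreated abdominal wall is among the 16 libraries. The sources used here do not say that each library is a different rat, and p values measure the spread between these libraries.

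Fibroblasts of the body wall lay down the collagen and the glycoproteins between muscle fibres, and around a foreign body they build the fibrous capsule. All but Scarf2 encode proteins that leave the cell. Fibin (fin bud initiation factor homolog) is a small secreted protein named for its role in the fin bud of fish. Clec3b encodes tetranectin, a secreted C-type lectin that binds plasminogen. Myoc encodes myocilin, a secreted glycoprotein with an olfactomedin domain, best known from the drainage tissue of the eye and also made in skeletal muscle. Egfl6 encodes a secreted protein with EGF-like repeats that associates with the matrix. Scarf2 encodes a membrane protein of the scavenger receptor class F with EGF-like repeats.

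In the coordinates of the count files, which are Ensembl gene models of a build the sources do not settle, Fibin (ENSRNOG00000004699) lies on chromosome 3 from 101545208 to 101547478, on the minus strand, as a single exon block of 2271 bases. Clec3b (ENSRNOG00000004540) lies on chromosome 8 from 132241134 to 132246694, on the plus strand, with 3 exon blocks and an exonic length of 823 bases. Scarf2 (ENSRNOG00000000288) lies on chromosome 11 from 87722350 to 87733734, on the plus strand, with 11 blocks and 3313 bases. Myoc (ENSRNOG00000003221) lies on chromosome 13 from 80517536 to 80527928, on the plus strand, with 3 blocks and 2047 bases. Egfl6 (ENSRNOG00000004275) lies on chromosome X from 29430831 to 29488739, on the plus strand, with 12 blocks and 2656 bases. None of the 5 gene models overlaps another gene of the files on either strand.

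Of the 5 genes, only Myoc has an entry in the RefSeq promoter table of the rat build GRCr8 used here. The 50 bases before its start, GRCr8 chr13:77509913-77509962 on the plus strand, are shown for orientation, since they hold a TATAAA motif, in capitals, whose first base lies 26 bases before the start. The expression data bear on no base of this stretch.

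Myoc upstream stretch: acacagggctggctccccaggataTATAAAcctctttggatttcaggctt

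The 300-base entry, 250 bases before and 50 after the start, holds TATAAA once on the plus strand and has a GC content of 49.3%. Of 33469 promoters of the same length in the table, 14.2% hold TATAAA on either strand and 8.8% on the plus strand.

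Library totals ran from 13852126 to 24858976 counts, and the day 14 libraries were all smaller than the smallest of day 3. Levels are CPM, counts divided by library sizes that were scaled by TMM factors over all 16 libraries, which ran from 0.619 to 1.41. A sum over the tissue cannot tell fewer cells of a type from less RNA per cell. The non-adhesive library 4 of day 14 stood apart from its group: the mean log2 CPM of 8 named genes of activated fibroblasts and scar matrix was 7.22 there and 9.45 to 9.91 in the other 3 libraries. The mean of 4 named genes of skeletal muscle fibres was 11.10 there against 10.48 to 10.51. Results that rest on this library are given with and without it.

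Fibin was low at adhesive implants on day 3, with 1.84, 2.06, 3.39 and 3.53 CPM in libraries 1 to 4 (mean 2.71 ± 0.879, SD, n = 4). At non-adhesive implants on day 3 it had 8.62, 6.69, 6.14 and 6.69 CPM (7.04 ± 1.09). All 4 adhesive libraries lay below all 4 non-adhesive libraries, with a narrow spread in each group. On day 14 Fibin reached 4.32, 13.9, 16.7 and 12.1 CPM at adhesive implants (11.7 ± 5.31) and 11.5, 27.1, 21.5 and 5.92 CPM at non-adhesive implants (16.5 ± 9.56). These groups overlapped, with adhesive library 1 and non-adhesive library 4 lowest in their groups.

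Clec3b had 11.1, 12.0, 9.65 and 35.1 CPM at adhesive implants on day 3 (17.0 ± 12.1) and 36.0, 72.8, 54.6 and 45.7 CPM at non-adhesive implants (52.3 ± 15.7). The groups did not overlap, but adhesive library 4 reached nearly the lowest non-adhesive library. On day 14 the levels were 18.4, 79.9, 34.7 and 29.1 CPM at adhesive implants (40.5 ± 27.1) and 69.6, 88.6, 121 and 49.7 CPM at non-adhesive implants (82.3 ± 30.5). Adhesive libraries 1, 3 and 4 lay below all non-adhesive libraries, and adhesive library 2 lay among them.

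Scarf2 had 4.21, 7.22, 6.03 and 10.3 CPM at adhesive implants on day 3 (6.93 ± 2.54) and 19.5, 11.8, 13.3 and 19.5 CPM at non-adhesive implants (16 ± 4.06). The groups did not overlap on this scale. With CPM on library totals in place of TMM-scaled sizes they did, since adhesive library 4 then had 13.8 and non-adhesive library 2 had 12.4. On day 14 Scarf2 had 6.81, 15.2, 12.6 and 9.32 CPM at adhesive implants (11 ± 3.68) and 29.1, 37.1, 35.4 and 10.6 CPM at non-adhesive implants (28.1 ± 12.1). Non-adhesive library 4 was the only non-adhesive library within the adhesive range.

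Myoc had 2.97, 4.13, 5.18 and 8.62 CPM at adhesive implants on day 3 (5.22 ± 2.44) and 6.65, 37.1, 3.55 and 6.40 CPM at non-adhesive implants (13.4 ± 15.8). The mean of the non-adhesive group rested on library 2, and its other 3 libraries lay within the adhesive range. On day 14 Myoc had 7.46, 9.16, 5.84 and 4.31 CPM at adhesive implants (6.69 ± 2.09) and 26.5, 19.3, 33.5 and 36.6 CPM at non-adhesive implants (29.0 ± 7.72). The day 14 groups were far apart. On this scale the non-adhesive library 4 that was lowest for Fibin, Clec3b and Scarf2 was the highest for Myoc. With CPM on library totals it was not the highest for Myoc, with 22.7 against 27.3, 19.2 and 33.1 in libraries 1 to 3.

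Egfl6 was close to undetected at adhesive implants. Its counts in libraries 1 to 4 were 2, 1, 1 and 1 at adhesive and 52, 7, 19 and 23 at non-adhesive implants on day 3. The day 14 counts were 0, 1, 2 and 5 at adhesive and 20, 26, 43 and 18 at non-adhesive implants. The groups did not overlap on either day, and adhesive library 1 of day 14 had no count, which allows up to 0.324 CPM. Mean levels were 0.0572 ± 0.0342 and 0.873 ± 0.479 CPM on day 3 and 0.16 ± 0.17 and 1.86 ± 0.607 CPM on day 14, adhesive before non-adhesive. The ratio of summed counts per scaled library size was 17.9 on day 3 (101 against 5 counts, 95% exact interval 7.42 to 56.3) and 10.8 on day 14 (107 against 8 counts, 5.28 to 25.6). These intervals and the limit cover counting error only.

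**Figure D1:**
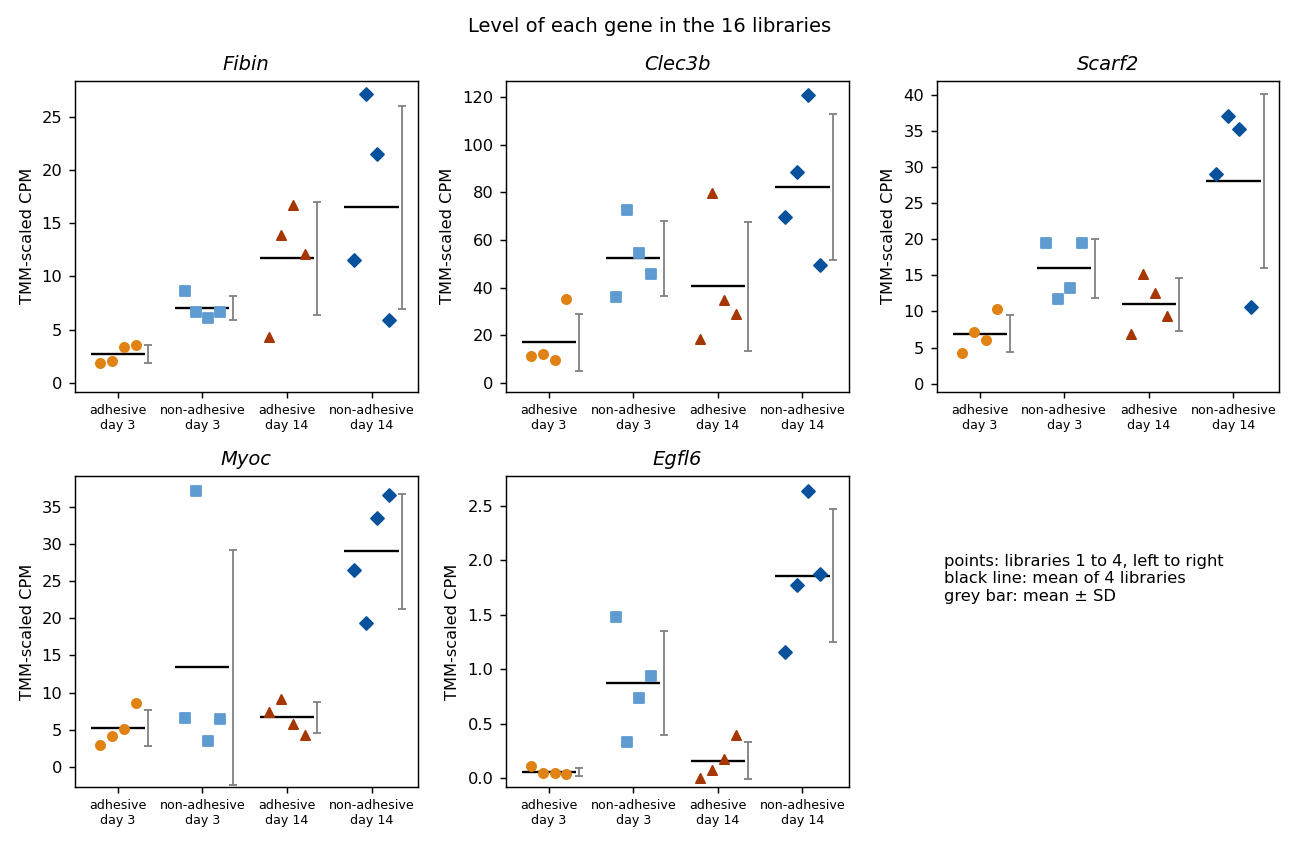
TMM-scaled CPM (vertical axes, linear, a separate scale per gene) of the 5 genes in the 4 groups (horizontal axes), each point a library, black lines the mean of 4 libraries and grey bars the mean ± SD. Myoc and Egfl6 separate the implants on day 14, where Myoc means are 6.69 and 29.0 CPM, while Fibin means rise from 2.71 and 7.04 CPM on day 3 to 11.7 and 16.5 CPM on day 14.

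Ordered by group means, adhesive implants on day 3 came last and non-adhesive implants on day 14 came first for all 5 genes. For Clec3b, Scarf2, Myoc and Egfl6 the order in between was adhesive on day 14 below non-adhesive on day 3, and every neighbouring pair of groups overlapped. Fibin had non-adhesive on day 3 below adhesive on day 14, and of its neighbouring pairs the libraries were separate only between adhesive and non-adhesive on day 3. Per kilobase of exonic length, Clec3b was the most abundant in every group, with 20.6 CPM per kb at adhesive implants on day 3 and 63.5 at non-adhesive implants on day 3. Egfl6 was the least abundant per kilobase in every group, with 0.0215 and 0.329 CPM per kb in the same groups. Fibin, Scarf2 and Myoc lay in between, with means of 1.19 to 7.26, 2.09 to 8.47 and 2.55 to 14.2 CPM per kb.

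On day 3, the comparison that chose most of these genes, 4 of the 5 had adhesive libraries all below the non-adhesive libraries, Egfl6 among them without passing the filter on low counts. Of the 14223 genes that passed it 2.67% were separated in this way. Since the choice used it, this count is only a description. Log2 fold changes of adhesive against non-adhesive implants were -1.37 for Fibin, -1.59 for Clec3b and -1.19 for Scarf2. Egfl6 had no fit on day 3 alone, and in a fit of all 16 libraries it had -3.88. Myoc, which was not chosen on day 3, had a log2 fold change of -1.33 (SE 0.72) and an adjusted p of 0.741 with the quasi-likelihood test of edgeR. It was lower in 1 of 4 adhesive libraries than in any non-adhesive library. Without non-adhesive library 2 the Myoc value was -0.07. On day 3 edgeR called 0 of 14223 genes (0%) (adjusted p no higher than 0.05, log2 fold change of 1 or more in size), with 1022 genes at an unadjusted p under 0.05. DESeq2 called 69 genes (0.485%) and limma-voom 0, and with DESeq2 Myoc had an adjusted p of 0.524.

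On day 14 the implant comparison was tested for the 4 genes chosen on day 3, in libraries that the choice did not use. All 4 had lower fitted values at adhesive implants, Egfl6 by the most, and edgeR called 0 of the 4, against 0.111% of 13557 tested genes called lower. At an unadjusted p under 0.05 edgeR had 2 of the 4, Scarf2 and Egfl6, both lower, against 15.9% of the tested genes in either direction. The same 2 passed DESeq2, which called 2.35% of the tested genes lower at adhesive implants. Egfl6 entered the tested genes only through the non-adhesive group, so in both counts Scarf2 alone is free of that filter.

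Egfl6 on day 14 had a log2 fold change of -3.39 (SE 0.62, edgeR adjusted p = 0.0815), a 10.5-fold difference with all 4 adhesive libraries below all 4 non-adhesive libraries. With at most 5 counts in an adhesive library, Egfl6 passed the filter on low counts only through the non-adhesive group, so its place among the tested genes already rests on that difference. With no filter the adjusted p with edgeR was 0.0747. DESeq2 gave -3.46 with an adjusted p of 7.54e-05, and a fit of all 16 libraries with edgeR gave an adjusted p of 0.0172. Over the 8 fits that left out 1 library each, the edgeR value stayed between -4.27 and -3.07 with adjusted p from 0.0137 to 0.255. It passed in the fit without non-adhesive library 4. DESeq2 called Egfl6 in all 8 such fits, with adjusted p from 0.000135 to 0.00289.

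Scarf2 on day 14 had -1.35 (SE 0.40), a 2.55-fold difference, with an adjusted p of 0.165 with edgeR and 0.027 with DESeq2. Without non-adhesive library 4 the value was -1.63, with an adjusted p of 0.00855 with edgeR and 2.66e-07 with DESeq2. The DESeq2 call was lost in 6 of the 8 fits without 1 library, where its highest adjusted p was 0.17. It held without non-adhesive library 4 and without adhesive library 2.

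Clec3b on day 14 had -1.02 (SE 0.46), with an adjusted p of 0.327 with edgeR and 0.201 with DESeq2. DESeq2 passed it without adhesive library 2, with -1.58 and an adjusted p of 0.000884, and without non-adhesive library 4, with -1.20 and 0.0299. Fibin on day 14 had -0.49 (SE 0.51), with an adjusted p of 0.707 with edgeR, and 1 of 4 adhesive libraries lay below all non-adhesive libraries. Leaving out 1 library moved the Fibin value between -0.77 and -0.14, with non-adhesive library 2 left out for the smallest value and non-adhesive library 4 for the largest.

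Myoc, chosen on this day, had -2.11 (SE 0.28) on day 14, given without a test. Together with Egfl6 it was 1 of 2 of the 5 genes whose adhesive libraries all lay below the non-adhesive libraries, against 4.11% of all tested genes. Myoc was chosen on this day and Egfl6 passed the filter on low counts through the non-adhesive group, so this count is only a description. Leaving out 1 library kept the Myoc value between -2.31 and -1.96.

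How far the implant difference itself moved with the day was fitted for each gene in all 16 libraries. The day 14 minus the day 3 log2 fold change was 0.88 (SE 0.61) for Fibin, 0.60 (SE 0.66) for Clec3b, -0.15 (SE 0.52) for Scarf2, -0.77 (SE 0.83) for Myoc and 0.47 (SE 0.82) for Egfl6. Each of these reuses the day on which the gene was chosen, so no test is given.

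**Figure D2:**
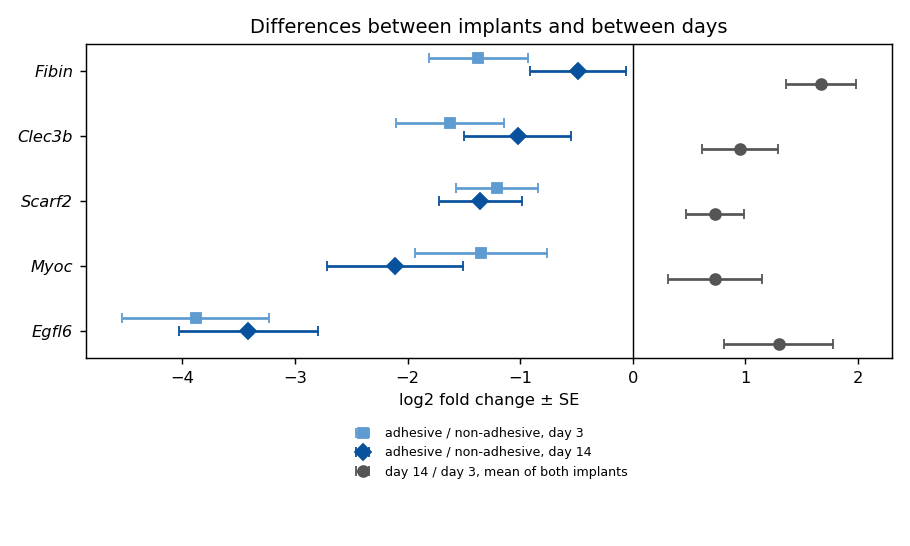
Log2 fold change ± SE (horizontal axis) of the 5 genes (rows) for adhesive against non-adhesive implants on day 3 and day 14, from a fit of all 16 libraries, and for day 14 against day 3 averaged over both implants. All implant values are below 0, from -3.88 for Egfl6 on day 3 to -0.49 for Fibin on day 14, and all day values are above 0, from 0.73 for Myoc to 1.67 for Fibin.

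The day effect averaged over both implants does not reuse the implant differences and was tested for all 5 genes. All 5 had positive values, where the median of all tested genes was 0.02. Of the 5, edgeR called 2 higher on day 14, Fibin and Egfl6, against 7.51% of 14601 tested genes called in this direction. Egfl6 passed the filter on low counts through non-adhesive libraries only, so of these 2 Fibin alone is free of that filter. Fibin rose by a log2 fold change of 1.67 (SE 0.31, edgeR adjusted p = 0.0012), a 3.19-fold rise. All 4 adhesive libraries of day 14 lay above all 4 of day 3, and 3 of 4 non-adhesive libraries did so at their implant. The share of all genes separated in this way is not reported here. For the day effect, 45.9% of the tested genes had an unadjusted p under 0.05 with edgeR. The call held in all 16 fits without 1 library, with values from 1.5 to 1.75 and adjusted p from 0.000309 to 0.00418.

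Egfl6 had a day effect of 1.3 (SE 0.48, edgeR adjusted p = 0.0472) on small counts, and passed the filter through non-adhesive libraries only. It was lost in 11 of 16 fits without 1 library, where values ran from 0.85 to 1.31 and adjusted p reached 0.251 without adhesive library 4 of day 14. Clec3b with 0.96 (SE 0.34) and Scarf2 with 0.74 (SE 0.26) had adjusted p of 0.0369 and 0.0372 with edgeR but stayed under the fold threshold. Myoc had 0.73 (SE 0.41) with an adjusted p of 0.181. Without non-adhesive library 2 of day 3 Myoc had 1.37 with an adjusted p of 0.00107.

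By implant, the edgeR values of day 14 against day 3 at adhesive implants were 2.11 for Fibin, 1.26 for Clec3b, 0.66 for Scarf2, 0.35 for Myoc and 1.53 for Egfl6. At non-adhesive implants they were 1.23, 0.66, 0.81, 1.12 and 1.06 in the same order. Fibin had its larger value at adhesive implants and Myoc at non-adhesive implants, without a test of that difference. A rise with the day cannot be told apart from a batch or the depth that follows the day. Scaling by library totals moved the median of all genes to -0.48 from 0.02 and the share of calls that were higher on day 14 to 16.9% from 59.9%. Relative to the median of all genes, Fibin then had 1.70 in place of 1.66 and Egfl6 1.27 in place of 1.28. The edgeR test on library totals used values not set against that median, 1.21 for Fibin and 0.79 for Egfl6. By that test Fibin was called (edgeR adjusted p = 0.014) and Egfl6 was not (edgeR adjusted p = 0.2).

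Within groups, libraries that were high for Fibin were high for Scarf2. After the mean of each group was subtracted from log2 CPM, Pearson's r was 0.82 and Spearman's rho 0.81 over 16 libraries, with adjusted permutation p of 0.011 and 0.0043 over 10 pairs of genes. Without the 2 libraries farthest from the median of Fibin r was 0.65. Without non-adhesive library 4 of day 14 r was 0.71 with an adjusted permutation p of 0.053. Within day 3 alone r was 0.63 (exact permutation test, adjusted p = 0.46) and within day 14 alone 0.89 (adjusted p = 0.035 by the same exact test). Within day 14 rho was 0.86 (exact permutation test, adjusted p = 0.1), and r was 0.54 without the 2 farthest libraries. Within a day the relation thus passed by r on day 14 alone, where it rests in part on 2 libraries, and by rho on neither day. Adhesive library 1 and non-adhesive library 4 of day 14 were the lowest of their groups for Fibin, Scarf2 and both fibroblast lists given below. How many other pairs of genes go together as closely was not tested.

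Of the 10 pairs, 1 passed. Fibin with Clec3b had r = 0.57 (adjusted permutation p = 0.15) and Clec3b with Scarf2 had r = 0.62 (0.1 by the same permutation test). Within day 14 alone Clec3b with Scarf2 had r = 0.8 (exact permutation test, adjusted p = 0.035) and rho = 0.9 (adjusted p = 0.069 by the same exact test), and within day 3 r = 0.35 (exact permutation test, adjusted p = 0.84). Myoc went with none of these, with r = -0.04 for Fibin (0.33 within day 3 and -0.44 within day 14), -0.06 for Scarf2 and 0.4 for Clec3b, the last at an adjusted permutation p of 0.15. Myoc with Egfl6 had r = -0.55 with an adjusted permutation p of 0.15. The SD within groups on the log2 scale was 0.7 for Fibin, 0.7 for Clec3b, 0.59 for Scarf2, 0.85 for Myoc and 0.67 for Egfl6.

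**Figure D3:**
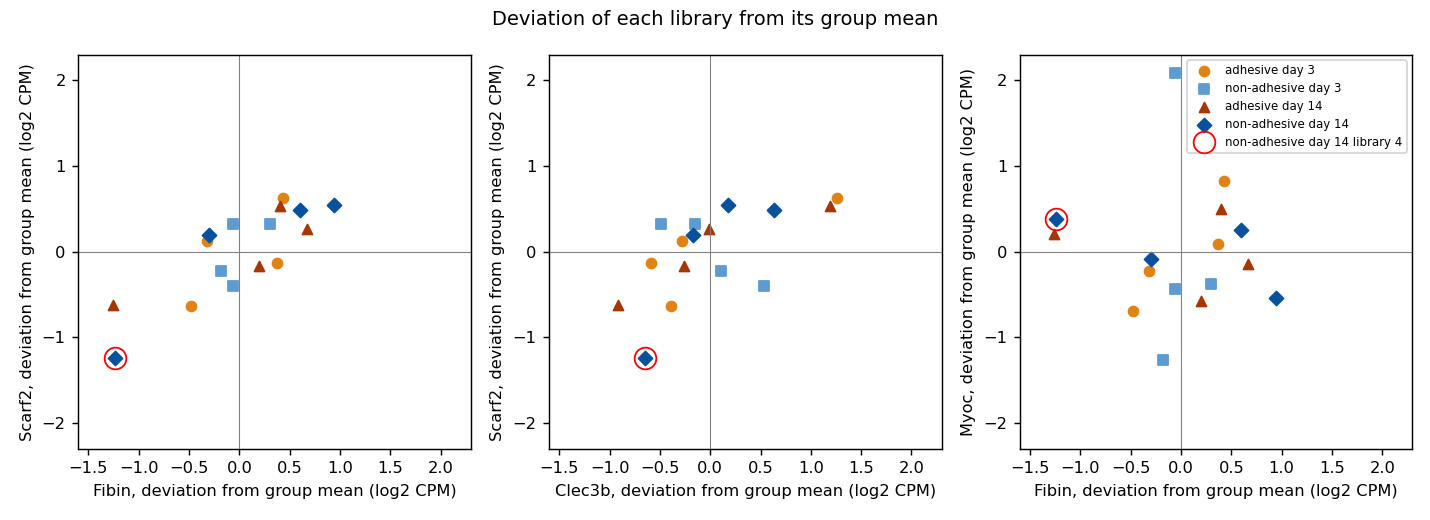
Deviation of each library from the mean of its group in log2 CPM, for Scarf2 against Fibin, Scarf2 against Clec3b and Myoc against Fibin, with marker shape and colour for the group. Fibin and Scarf2 rise together (r = 0.82), and Fibin and Myoc do not (r = -0.04). On this TMM scale the circled non-adhesive library 4 of day 14 is low for Fibin and Scarf2 and above its group mean for Myoc.

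The genes with a symbol whose log2 CPM over the 16 libraries was most like that of each gene were ranked by Pearson's r among 1908 candidates with a mean of at least 1 CPM. This likeness includes the differences between groups and the depth and scaling of the shared libraries, and it is given as a description. Scarf2 was most like Cthrc1, a secreted protein of collagen-producing fibroblasts, with r = 0.955, followed by Stx2 (0.954), Serpinf1 (0.94), Ccdc80 (0.937) and Col6a2 (0.935). Clec3b was most like Ddah2 (0.9) and Dpt (0.892), the matrix protein dermatopontin. Fibin was most like Chst3 (0.887), a sulfotransferase of proteoglycan chains, followed by Begain (0.881), C1qtnf2 (0.876) and Dpt (0.875). Clec3b and Fibin thus shared Dpt and C1qtnf2 among their 5 nearest named genes, and Clec3b and Scarf2 shared Serpinf1 and Ccdc80. Among all 13151 genes at that level, with or without a symbol, many were nearer. For Fibin 16 genes had a higher r than Dpt. For Clec3b 9 had a higher r than Dpt and 41 than Ccdc80, and for Scarf2 25 had a higher r than Ccdc80.

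Egfl6 was most like Fmod (0.86), the collagen-binding proteoglycan fibromodulin, Meis2 (0.837) and Eln (0.817), which encodes elastin. Myoc was most like Abca8a (0.849), a membrane transporter, Slc15a2 (0.824) and Fmo4 (0.806). No gene was among the 5 nearest named genes of both Myoc and another of the 5 genes, and the same holds for Egfl6.

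Only 2007 of the 32552 genes carry a symbol in the sources used here, so each list of related genes below is seen in part. Of 47 genes listed for resident fibroblasts, 14 were named and tested. None of the 14 passed edgeR between implants on either day, and the median log2 fold change was -0.54 on day 3 and -0.77 on day 14, against -0.01 and -0.04 over all tested genes. With DESeq2 Dpt and C1qtnf2 were lower at adhesive implants on day 3, and Dpt (-1.70, adjusted p = 0.016) and Anxa3 (-1.06, 0.0015 with DESeq2) on day 14. Between days 4 of the 14 rose by edgeR, against 7.51% of all tested genes, and 0 fell: Dpt by 1.99, Timp3 by 1.45, C1qtnf2 by 1.28 and Fstl1 by 1.26 on the log2 scale.

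Of 38 genes listed for activated fibroblasts and scar matrix, 8 were named. All 8 had negative values between implants on both days, with medians of -1.10 on day 3 and -1.70 on day 14. On day 14 Fmod was lower at adhesive implants by edgeR (-2.36, adjusted p = 0.044), while Eln (-2.88, adjusted p = 0.00018) and Cthrc1 (-2.63, 0.0033) passed DESeq2 and not edgeR. In 5 of 8 fits without 1 library edgeR called no gene lower, Fmod included. On day 3 Eln passed DESeq2 (-1.31, adjusted p = 0.038) and none of the 8 passed edgeR. Between days edgeR called Eln (1.38) and Cthrc1 (1.26) higher. Some of these genes were themselves known from earlier results of these libraries.

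Of 18 genes of the plasminogen system, in which tetranectin takes part, 4 were named. None passed between implants by edgeR or DESeq2, and the median was -0.18 on day 3 (4 tested) and -0.31 on day 14 (3 tested). Serpinf2, the inhibitor of plasmin, fell between days by 1.33 on the log2 scale (edgeR adjusted p = 0.0014), while the Clec3b value was 0.96. Of 24 relatives and partners of the 5 genes, 2 were named, Egfl8 and Olfml2b, and neither passed in any of these comparisons. On day 14 their edgeR values were -0.61 and -0.85.

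Of the marker lists of other cell types, only that of adipocytes had negative medians between implants on both days, as the 5 genes had negative values. The muscle fibre genes had edgeR medians of 0.19 on day 3 and 1.04 on day 14, higher at adhesive implants. The 4 named muscle fibre genes of 34 listed, Mb and Eno3 among them, had mean log2 CPM of 11.30 to 11.94 in adhesive and 10.48 to 11.10 in non-adhesive libraries on day 14, and 9.58 to 10.50 and 9.05 to 10.86 on day 3. None of the 4 passed edgeR between implants, 2 passed DESeq2 as higher at adhesive implants on day 14 (1.15% of all tested genes did), and 2 passed edgeR as higher on day 14 than on day 3 (7.51% of all). The part of muscle RNA in the levels of the 5 genes was not tested. In non-adhesive library 2 of day 3, with the highest Myoc, Mb was at 2830 CPM against 498 to 1380 CPM in the other 3. Non-adhesive library 4 of day 14 was the highest for Myoc on TMM-scaled CPM but not on library totals. Its Mb was at 6230 CPM against 2050 to 3630 CPM in the other libraries of its group. All 4 adhesive libraries of day 14 had 6410 to 9150 CPM of Mb and the low Myoc levels given above.

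The 6 named leukocyte genes of 35 listed had no gene passing between implants by edgeR or DESeq2, with medians of 0.34 on day 3 and -0.12 on day 14. The 4 named endothelial genes of 17 had medians of 0.39 and -0.10, with Flt4 lower on day 14 by DESeq2 (-1.49, adjusted p = 0.041) and Prox1 higher on day 14 than on day 3 by edgeR and DESeq2. The 6 named Schwann cell genes of 12 had medians of 0.38 on day 3 and -0.74 on day 14 (5 tested), with S100b lower at adhesive implants on day 14 by DESeq2 (-2.58 with edgeR, DESeq2 adjusted p = 0.0047). The 2 named adipocyte genes of 14, Adipoq and Retn, had medians of -0.63 and -2.66, and Adipoq passed DESeq2 on day 14 (adjusted p = 0.00065). Adipoq ran from 1.84 to 19.8 CPM in adhesive and from 32.3 to 313 CPM in non-adhesive libraries on day 14. Its adhesive libraries thus all lay below the non-adhesive ones, as did those of 4.11% of all tested genes. Retn overlapped on day 14, with 0 to 3.94 and 3.14 to 7.79 CPM. On day 3 Adipoq overlapped as well, with 9.77 to 70 and 5.16 to 147 CPM, as Myoc did and Egfl6 did not. On day 3 the non-adhesive library with the highest Myoc had the lowest Adipoq of its group, 5.16 CPM. Of 13 mesothelial genes none was named. The part of these cell types in the levels of the 5 genes was not tested.

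**Figure D4:**
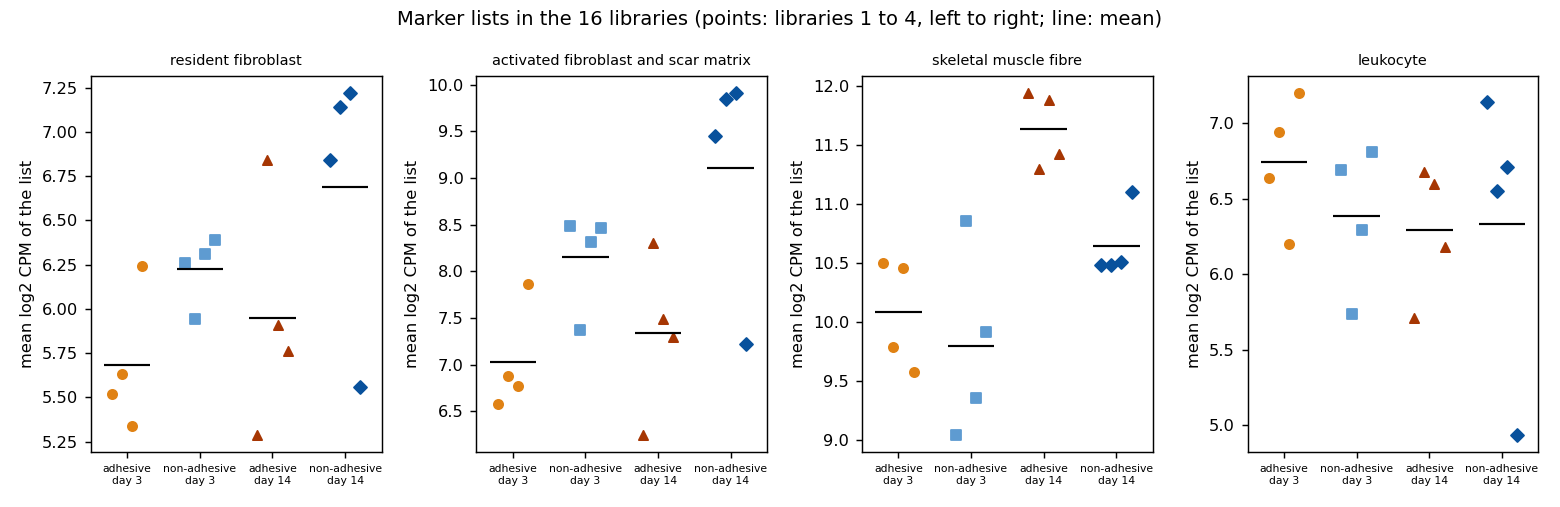
Mean log2 CPM (vertical axes, a separate scale per list, not starting at 0) of the named genes of 4 marker lists in the 4 groups, each point a library and each line the mean of 4 libraries. On day 14 muscle fibre genes lie at 11.30 to 11.94 in adhesive and 10.48 to 11.10 in non-adhesive libraries, and non-adhesive library 4 is the lowest of its group for both fibroblast lists and for leukocytes.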

How the data were processed

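Total RNA of the abdominal wall was enriched for mRNA and sequenced by the authors (NEBNext Ultra library kit, paired ends). Their tools were bcl2fastq 2.17 for demultiplexing, FastQC, Cutadapt, the aligner STAR and featureCounts. The deposited values are whole-number counts per gene, not normalized, for 32552 genes per library. The paper names the rat build mRatBN7.2 and the submitters' processing notes GRCm38, a mouse build. The build of the coordinates in the files is not settled. Whether counting used the strand is not given in the sources used here. Symbols come from identifiers paired with names in the shortened supplementary sheets, whose fold changes, p-values and normalized values of DESeq2 were not used. Days follow the sample labels; the series text and the extraction protocol also name other days.

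In R 4.3.3, low counts were removed by filterByExpr and library sizes scaled by TMM. The quasi-likelihood test of edgeR 4.0.16 (robust) was run over all remaining genes, with Benjamini-Hochberg adjustment. The 8 libraries of a day were fitted for the implant effect and all 16 for the day effect. Calls needed an adjusted p no higher than 0.05 and a log2 fold change of 1 or more in size, the thresholds of the study. Alternatives were DESeq2 1.42.0 (the study's tool), its size factors in edgeR, no filter on low counts, DESeq2 on genes with a mean count over 10, 1 fit of 16 libraries, limma-voom (limma 3.58.1), the replicate number as a block and leaving out each library. Limma-voom for the implants, leave-one-out fits of DESeq2 and library totals without TMM were added after seeing the data. Correlations used log2 CPM with a prior count of 2, less the group mean, and a two-sided permutation test that shuffled libraries within groups (100000 resamples, or every order for 8 libraries, an exact test). The tests were run on simulated data as a check of the code. No simulated library was set apart from its group, so the check does not cover that case. Statistics and figures used Python 3.11.15, numpy 2.4.6, pandas 2.3.3, scipy 1.17.1 and matplotlib 3.10.9.

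The 5 genes and the gene lists were chosen with earlier results of these data known. Besides the 5 genes, the text names genes by 3 rules: the 5 most like each by r, the members of each list that passed, and up to 4 members per list with the lowest adjusted p. A part of those is printed, 1 gene of the plasminogen list is not reported here, and library values of Mb and Adipoq were picked after they were seen. Libraries of a group differed by more than sampling noise. Totals were 18616084 to 24858976 counts on day 3 and 13852126 to 16801635 on day 14, and Egfl6 had at most 52 counts in a library.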

Additional observations from a re-analysis of the deposited data

Results flagged for a closer look

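Among 20 sets of 4 libraries, 5 genes in 4 groups, 3 held a library whose gap to its nearest neighbour exceeded Dixon's 95% critical value, where chance gives about 1 in 20. Clec3b in adhesive library 4 of day 3 was at 35.1 CPM against 9.65 to 12.0 CPM in the other 3 libraries. The same library had the highest mean log2 CPM of its group for resident fibroblast genes (6.24) and for activated fibroblast and scar matrix genes (7.86), and was also highest for Fibin, Scarf2 and Myoc. Myoc in non-adhesive library 2 of day 3 was at 37.1 CPM against 3.55 to 6.65 CPM. Egfl6 in adhesive library 1 of day 3 was at 0.108 CPM, which is 2 counts against 1 in each of the other 3 libraries, a difference within counting error.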

How the results depend on the processing

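On day 14 the number of genes called between implants was 36 with edgeR, 474 with DESeq2, 513 with DESeq2 on genes with a mean count over 10, 216 in a fit of all 16 libraries, 6 on library totals without TMM and 0 with the replicate block (1973 at an unadjusted p under 0.05). Leaving out 1 library gave 1 to 1151 calls, the highest without non-adhesive library 4. On day 3 it was 0 with edgeR, 69 with DESeq2 and 73 with DESeq2 on genes with a mean count over 10. Scarf2 on day 14 passed with DESeq2 (-1.35), with DESeq2 on genes with a mean count over 10 (-1.35) and in 1 leave-one-out fit (-1.63), while all 8 such fits ran from -1.63 to -1.19. Egfl6 on day 14 passed with DESeq2 (-3.46), on genes with a mean count over 10 (-3.46), in the fit of 16 libraries (-3.41) and in 1 leave-one-out fit (-3.39), while all 8 ran from -4.27 to -3.07. The day effect of Egfl6 missed the threshold with no filter on low counts (1.22), on library totals (0.79), with limma-voom (1.13), with the replicate block (1.34) and in 11 of 16 leave-one-out fits (0.85 to 1.31), while all 16 ran from 0.85 to 1.45. Leaving out a library also let the day effect pass for Clec3b in 4 fits (1.02 to 1.23, all 16 from 0.67 to 1.23) and for Myoc in 1 fit (1.37, all 16 from 0.52 to 1.37). The cause was not tested. On library totals the median of all genes between implants on day 14 moved to -0.22 from -0.04, with Scarf2 at -1.6 and Egfl6 at -3.57. Some correlations that did not pass changed sign: Fibin with Myoc was 0.06 without non-adhesive library 4 of day 14 and 0.33 within day 3, Scarf2 with Myoc 0.06 and 0.03, and Clec3b with Egfl6 0.22 within day 14.

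The sources used here do not say that equal replicate numbers mark a pair. Within a day, same-numbered libraries had correlations of deviations of -0.41 to 0.55. Libraries of different numbers were not compared, so these values do not settle whether the numbers pair the libraries. With the number as a replicate block on day 14, Scarf2 had -1.27 (adjusted p = 0.195) and Egfl6 -3.52 (0.145, edgeR); on day 3 Myoc had -0.78.

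Egfl6 on day 3 could not be tested with the filter on low counts. Symbols for 2007 genes limit every list, and 4 libraries a group, of which library 4 at non-adhesive implants on day 14 stood apart, limit each comparison.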
